A study of Mus musculus with 6 samples.

Results

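The genes described here encode the beaded, network-forming and fibril-associated collagens expressed in a mouse pre-osteoblast line. They were chosen by name, with earlier results of these data known, as rows of the count tables matched by Ensembl identifier. The genes are Col6a1, Col6a2 and Col6a3 (type VI, beaded filaments) and Col8a1 and Col8a2 (type VIII, networks). The others are Col12a1, Col14a1 and Col16a1 (types XII, XIV and XVI), the FACIT group, fibril-associated collagens with interrupted triple helices. All 8 were found among the 53801 gene identifiers, and all 8 were among the 14531 genes with enough counts to be tested.

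RNA was sequenced from MC3T3-E1 cells, an immortalized line of mouse pre-osteoblasts that can be driven to form mineralizing bone cells in culture. The Control group (3 libraries) carried a lentivirus with a scrambled, non-silencing hairpin, and the Hdac4-knockdown group (3 libraries) carried a lentivirus with a short hairpin RNA (shRNA) against Hdac4, a class IIa histone deacetylase that represses transcription through partners such as the MEF2 and RUNX2 factors. Both groups shared the same vector, with a ZsGreen1 reporter and a puromycin resistance gene, and were selected with puromycin at 5 ug/mL for 7 days. The labels describe independent RNA samples for each group but do not say that these came from separate infections or cultures. Because 1 hairpin stands for the knockdown, p-values set the difference between groups against the spread between these RNA samples only. The comparison asks how a reduction of Hdac4 transcript alters gene expression in these cells.

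Collagens are trimers of chains that wind into a triple helix, and the type decides what the trimers build. Type VI trimers, in which the Col6a1, Col6a2 and Col6a3 chains combine, form beaded microfilaments close to the cell surface, where they meet fibrils, proteoglycans and cell receptors. Type VIII chains are short and pack into open lattices, while the FACIT collagens sit on the surface of type I and related fibrils, and type XII is a known component of periosteum, tendon and bone matrix.

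Between 29096544 and 31651826 reads per library were counted on genes, and levels are TMM-normalized CPM, the counts of a gene relative to the scaled total of its library. Hdac4 itself was at 40.7, 40.2 and 39.9 CPM in Control and 30.7, 28.8 and 29.5 CPM in Hdac4-knockdown libraries, which leaves 73.6% of the Control level (log2 fold change of -0.44 with an SE of 0.057, edgeR adjusted p = 8.98e-07). Of its 15813 exon bases, 3536 are shared with Gm26720. Reads that the counting assigned to no annotated feature were 3.17 to 3.41% in Control and 4.64 to 5.07% in Hdac4-knockdown libraries. Whether these reads lie within introns or outside genes was not tested. Genes with at least 1 count numbered 19373 to 19797 in Control and 22148 to 22640 in Hdac4-knockdown libraries. Of 8 osteoblast markers 5 were tested, with 3 called up (Runx2, from 69.9 to 79.5 CPM, Sp7, from 0.145 to 2.71 CPM, and Dmp1, from 3.58 to 20.9 CPM), Spp1 called down (from 3154 to 2046 CPM) and Phex not called, while Alpl did not exceed 3 counts in any library. Ibsp (0 and 0.183 CPM) and Bglap (0.0228 and 0.223 CPM) were not tested, with at most 7 and 12 counts in a library. The summed level of the 8 markers, 3209 to 3272 CPM in Control and 2127 to 2199 CPM in Hdac4-knockdown libraries, is mostly that of Spp1. Sp7 passed the filter on low counts only through its Hdac4-knockdown libraries, so being tested already required a difference. All 4 skeletal muscle markers were called down, with sums of 145.9 to 154.1 and 29.0 to 32.8 CPM. These marker counts stand beside 38% of all genes tested called up and 37.1% called down. Summed levels of the 5 chondrocyte markers were 125.2 to 128.2 and 168.0 to 185.4 CPM, those of the 4 stromal fibroblast markers 40.2 to 42.4 and 202.0 to 210.9 CPM, and those of the 3 tendon markers 39.3 to 42.3 and 24.1 to 28.8 CPM, with Acan and Tnmd at 0 throughout. The chondrocyte sum is mostly Sox9 (125.7 and 127.4 CPM, not called), and its rise is mostly that of Col2a1, a fibrillar collagen (0.827 and 51.1 CPM). Matn3, not tested, was at 0.202 and 0.0214 CPM. The fibroblast sum is mostly Pdgfra (39.5 and 206.8 CPM), whereas Dpt fell from 1.16 to 0.224 CPM. In the tendon list Scx fell from 40.2 to 15.6 CPM while Mkx rose from 0.957 to 10.4 CPM. Adipocyte markers, mostly Pparg (28.4 and 3.4 CPM), summed to 27.3 to 29.6 CPM in Control and 3.07 to 4.52 CPM in Hdac4-knockdown libraries. Endothelial markers summed to 0.262 to 0.421 and 2.81 to 3.16 CPM, leukocyte markers to 1.6 to 2.59 and 2.69 to 3.13 CPM. Epithelial markers summed to 0.491 to 0.969 and 0.565 to 0.905 CPM. Of these low genes Pecam1 (0.214 and 2.38 CPM) and Csf1r (0.147 and 0.686 CPM) were called up, both tested only through their Hdac4-knockdown libraries. The part of these shifts in the collagen results was not tested, and in bulk RNA a change in the share of cells that express a gene and a change in RNA per cell cannot be told apart. Hdac4-knockdown library 2 differed most from the others of its group (chi-square per degree of freedom 9.15 and 6.45, against 3.38 to 4.53 for the other pairs within a group).

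Of the 8 collagen genes, 7 rose and 1 fell in Hdac4-knockdown libraries. Among all genes tested, 38% were called up and 37.1% called down (75.1% in either direction), so a call as such was common in these data. The change was beyond 1 on the log2 scale for all 8 genes, 7 upward and 1 downward, where 16.5% of all genes passed this size upward and 10.6% downward. Col8a1, at -1.08, lay near this limit and came inside it with upper quartile scaling (-0.99). The median log2 fold change of the 8 genes was 2.60, against 0.0144 over all genes tested. The groups did not overlap for any of the 8 genes, which held for 76.8% of all genes, and the two-sided exact permutation test of each gene gave p = 0.1, below which 3 against 3 libraries cannot go. Calls therefore rest on the quasi-likelihood test of edgeR across all genes. One of the 7, Col14a1, passed the filter on low counts only through its Hdac4-knockdown libraries, so its presence among the genes tested already required a difference.

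**Figure D1:**
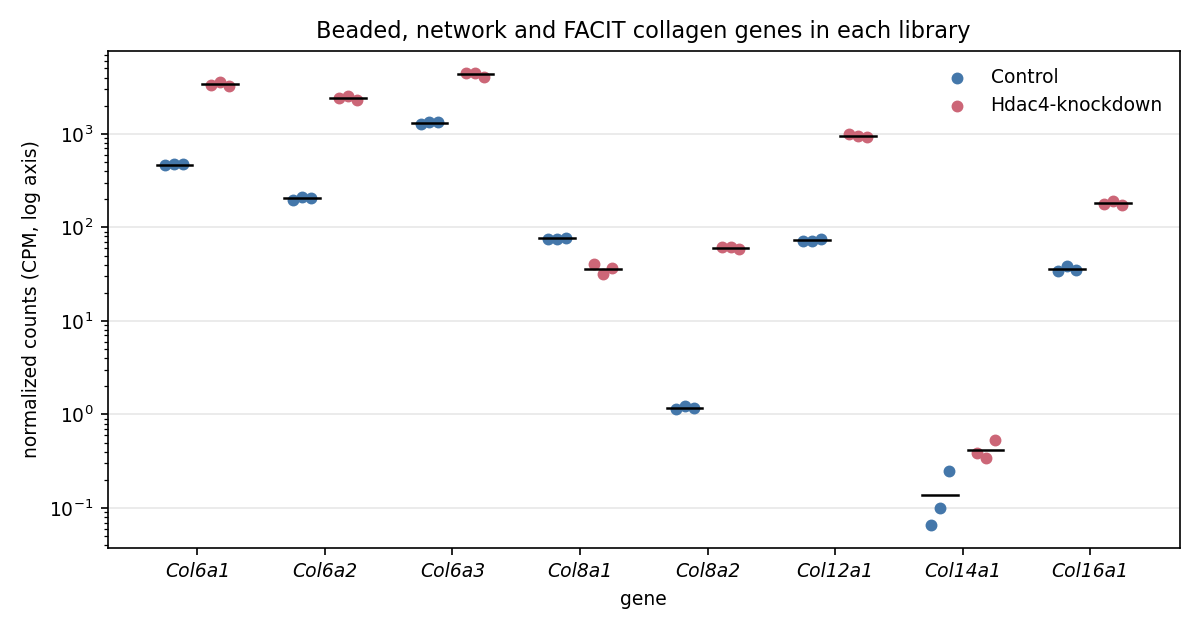
Normalized counts (CPM, log axis) of the 8 collagen genes in each of the 6 libraries, with points for libraries and black lines for group means of 3 libraries. Col8a2 shows the widest gap between groups, from a mean of 1.18 to 60.4 CPM, Col8a1 is the gene whose Hdac4-knockdown libraries lie below Control, and Col14a1 stays below 1 CPM in every library.

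**Figure D2:**
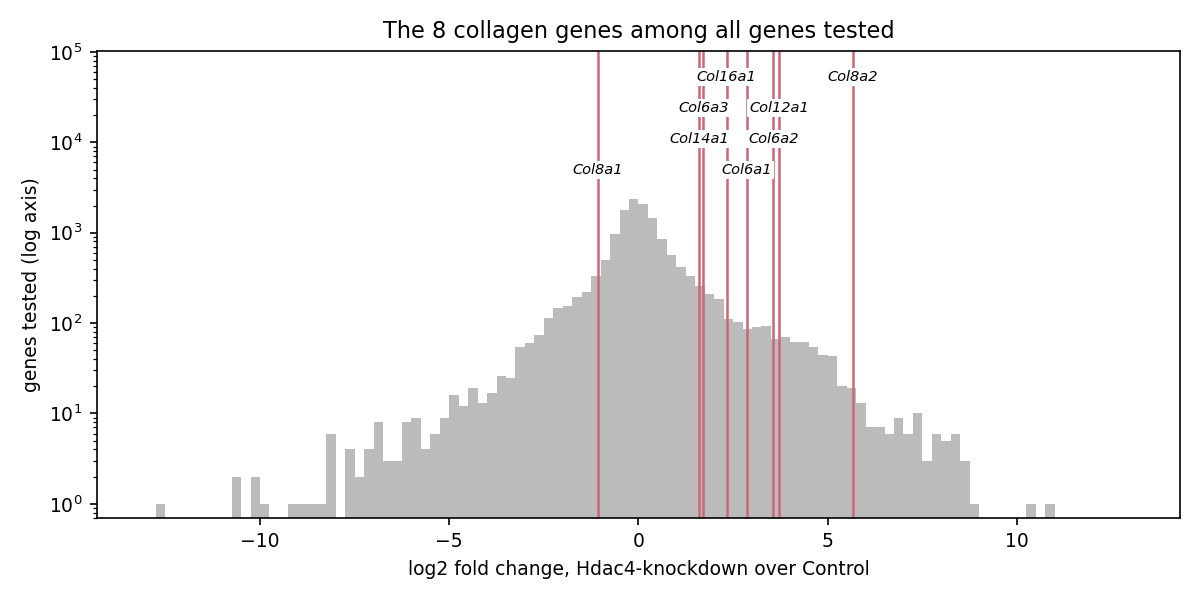
Log2 fold changes (Hdac4-knockdown over Control, x axis) of the 14531 genes tested, as the number of genes per bin (y axis, log scale), with red lines at the 8 collagen genes. Col8a1, at -1.08, lies on the left of 0, and the other 7 genes lie between 1.60 and 5.67.

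Type VI collagen supplied most of the reads of the group. Its 3 chains together took 0.190, 0.198 and 0.198% of the gene counts of the Control libraries and 1.04, 1.07 and 0.985% of those of the Hdac4-knockdown libraries, a 5.28-fold higher share. The 5 other genes took 0.0183% and 0.126% on average, a 6.87-fold difference. The 8 genes made up 27.6 ± 0.104% (SD, n = 3) of the counts on 44 collagen genes in Control and 29.9 ± 0.489% (SD, n = 3) in Hdac4-knockdown libraries, and the share of all gene counts on these 44 genes was 5.0-fold higher. The groups did not overlap for any of these shares.

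Col6a1 (ENSMUSG00000001119, chromosome 10, 76708792 to 76726168, minus strand of GRCm38) encodes the first of the 2 shorter type VI chains. It was at 460.6, 470.5 and 476.1 CPM in Control and at 3366, 3551 and 3278 CPM in Hdac4-knockdown libraries. Every Hdac4-knockdown library was far above every Control library, and libraries of a group lay close together. The means were 469.0 ± 7.84 and 3398 ± 139.2 CPM (SD, n = 3), a 7.24-fold rise with a log2 fold change of 2.86 (SE 0.0401, edgeR adjusted p = 1.13e-21).

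Col6a2 (ENSMUSG00000020241, chromosome 10, 76595762 to 76623630, minus strand) encodes the other shorter chain and lies beside Col6a1 in the same orientation, with 85161 bases between the genes. Its values were 196.6, 209.5 and 206.2 CPM in Control and 2391, 2511 and 2314 CPM in Hdac4-knockdown libraries. The groups were again far apart, and the rise was the steepest of the 3 chains. From 204.1 ± 6.75 to 2406 ± 99.3 CPM (SD, n = 3) it was 11.8-fold, a log2 fold change of 3.56 (SE 0.0438, edgeR adjusted p = 1.67e-22).

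Col6a3 (ENSMUSG00000048126, chromosome 1, 90765923 to 90843971, minus strand) encodes the long chain, whose extended amino-terminal part carries many von Willebrand factor A domains. It was at 1274, 1349 and 1338 CPM in Control and at 4432, 4426 and 4077 CPM in Hdac4-knockdown libraries. The groups did not overlap, but the distance between them was the smallest of the 3 chains. Its mean went from 1321 ± 40.4 to 4312 ± 203.1 CPM (SD, n = 3), a 3.27-fold rise (log2 fold change 1.71, SE 0.0404, edgeR adjusted p = 3.13e-18).

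Because the trimer takes 1 of each chain, levels of the chains were also set against each other within each library, as log2 ratios of counts per kilobase of exon, which library scaling cannot move. The log2 ratio of Col6a2 to Col6a1 was -2.16, -2.09 and -2.13 in Control and -1.42, -1.43 and -1.43 in Hdac4-knockdown libraries, a difference of 0.70 (SE 0.0183). The log2 ratio of Col6a3 to Col6a1 was 0.02, 0.07 and 0.04 in Control and -1.05, -1.13 and -1.13 in Hdac4-knockdown libraries, a difference of -1.15 (SE 0.0308). Neither ratio overlapped between groups (two-sided exact permutation test, p = 0.1 for each and 0.1 after Benjamini-Hochberg adjustment over 4 ratios). Per kilobase of exon, Col6a3 thus went from 45.6 ± 0.347% to 25.3 ± 0.596% of the type VI total, Col6a1 from 44.3 ± 0.460% to 54.4 ± 0.481%, and Col6a2 from 10.1 ± 0.115% to 20.3 ± 0.116% (SD, n = 3). The exon length of Col6a2 (8326 bases over 3 transcripts, against a coding length of 3102 bases) weighs on such levels. With coding length as the divisor Col6a2 made up 18.7 and 33.5%, Col6a1 43.3 and 47.7%, and Col6a3 38.0 and 18.9%. The differences of the log2 ratios do not depend on the length used, but the sizes of the share differences and the order of the chains do. Per kilobase of coding sequence the Control log2 ratio of Col6a3 to Col6a1 of 0.04 becomes -0.19, and Col6a2 stands above Col6a3 in Hdac4-knockdown libraries instead of below it.

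**Figure D3:**
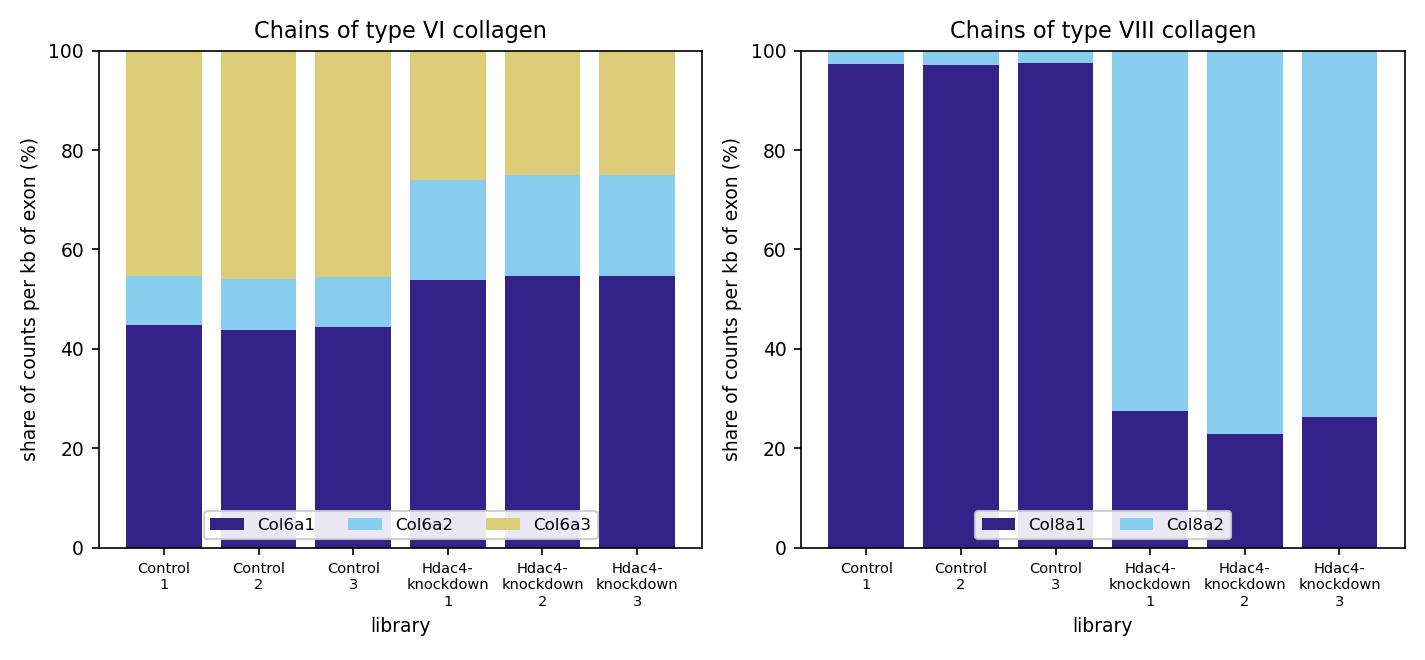
Share of each chain in the counts per kilobase of exon of its collagen type (y axis, %) in each library (x axis), for type VI on the left and type VIII on the right, with stacked bars that add to 100%. The Col6a3 share falls from 45.3 to 46.0% in Control to 24.9 to 26.0% in Hdac4-knockdown libraries, and Col8a2 goes from 2.55 to 2.77% to 72.5 to 77.2% of type VIII.

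The windows at the starts of the adjacent genes Col6a1 and Col6a2 are shown because both rose together. They run from 250 bases before to 50 bases after the RefSeq transcription start (GRCm38.p6, minus strand), and 6 of the 8 collagen genes matched an entry of that table, Col12a1 and Col14a1 being without one. The search covered 6 motifs on both strands: the GC box (GGGCGG), the TATA box (TATAAA), the E-box (CANNTG), an AP-1 motif (TGANTCA), a RUNX motif (TGTGGT) and the MEF2 motif. Capitals mark every match, and where matches of a motif overlap or abut they form 1 run. The Col6a1 window is chr10:76725995-76726294 and its start lies 124 bases inside the GENCODE gene start. The Col6a2 window, of 2 in the table, is chr10:76623581-76623880, whose start is also the GENCODE gene start.
Col6a1: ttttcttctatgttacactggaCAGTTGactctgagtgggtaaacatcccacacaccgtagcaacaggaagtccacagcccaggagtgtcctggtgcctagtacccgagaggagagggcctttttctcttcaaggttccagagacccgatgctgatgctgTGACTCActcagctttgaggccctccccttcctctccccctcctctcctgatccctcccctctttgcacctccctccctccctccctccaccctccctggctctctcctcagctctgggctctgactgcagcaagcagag
Col6a2: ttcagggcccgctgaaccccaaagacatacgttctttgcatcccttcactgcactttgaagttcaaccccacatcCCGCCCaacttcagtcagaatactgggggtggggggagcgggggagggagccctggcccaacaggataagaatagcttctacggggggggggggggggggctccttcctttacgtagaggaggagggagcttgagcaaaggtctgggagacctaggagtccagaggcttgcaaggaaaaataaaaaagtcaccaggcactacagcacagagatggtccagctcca
Counted from 0 at the start, the Col6a1 window holds an E-box at -228 and an AP-1 motif at -90, and the Col6a2 window a GC box at -175. The second Col6a2 window holds 3 GC boxes, and the Col6a3 window none of the 6 motifs. Over 32851 windows of the same length in the table, 72.3% held an E-box, 35.7% a GC box, 16.8% the RUNX motif, 13.6% a TATA box, 7.81% the AP-1 motif and 0.557% the MEF2 motif. A match describes these letters and is not evidence of binding.

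The type VIII chains moved in opposite directions. Col8a1 (ENSMUSG00000068196, chromosome 16, 57624258 to 57754737, minus strand), which encodes 1 of the 2 chains, was at 75.5, 75.6 and 77.3 CPM in Control and at 40.5, 31.4 and 36.5 CPM in Hdac4-knockdown libraries. All Hdac4-knockdown libraries were lower, and they were more scattered (coefficient of variation 12.6%) than the Control libraries (1.31%). The mean fell from 76.1 ± 0.995 to 36.2 ± 4.56 CPM (SD, n = 3), or 47.5% of Control, a log2 fold change of -1.08 (SE 0.068, edgeR adjusted p = 2.17e-11).

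Col8a2 (ENSMUSG00000056174, chromosome 4, 126286793 to 126314330, plus strand) encodes the partner chain, known from Descemet's membrane of the cornea. It was counted 35, 37 and 33 times in Control and 1896, 1969 and 1774 times in Hdac4-knockdown libraries, or 1.15, 1.24 and 1.16 CPM against 61.3, 61.1 and 58.9 CPM. The gene was detectable but low in all Control libraries and at a similar, much higher level in all Hdac4-knockdown libraries. The rise was 51.2-fold, from 1.18 ± 0.0492 to 60.4 ± 1.3 CPM (SD, n = 3), with a log2 fold change of 5.67 (SE 0.0909, edgeR adjusted p = 7.25e-21), which ranked 93 among the 14531 genes.

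The balance of the 2 chains therefore differed between groups. The log2 ratio of Col8a2 to Col8a1 per kilobase of exon was -5.24, -5.13 and -5.26 in Control and 1.40, 1.76 and 1.49 in Hdac4-knockdown libraries. The sign was negative in all Control libraries and positive in all Hdac4-knockdown libraries, and the difference was 6.76 (SE 0.116, two-sided exact permutation p = 0.1). On the linear scale there were 37.0 Col8a1 counts per Col8a2 count in Control and 2.93 Col8a2 counts per Col8a1 count in Hdac4-knockdown libraries, each per kilobase of exon. Per kilobase of coding sequence these were 60.7 and 1.79.

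The start windows of the type VIII genes are shown because the genes moved apart. The Col8a1 window is chr16:57754688-57754987 (minus strand) and the Col8a2 window chr4:126286544-126286843 (plus strand), with capitals as above.
Col8a1: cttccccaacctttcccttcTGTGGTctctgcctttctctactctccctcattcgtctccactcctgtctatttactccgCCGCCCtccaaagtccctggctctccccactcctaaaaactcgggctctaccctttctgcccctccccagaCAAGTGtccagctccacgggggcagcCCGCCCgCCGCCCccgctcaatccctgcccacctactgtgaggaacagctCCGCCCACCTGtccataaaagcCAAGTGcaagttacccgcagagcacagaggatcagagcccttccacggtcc
Col8a2: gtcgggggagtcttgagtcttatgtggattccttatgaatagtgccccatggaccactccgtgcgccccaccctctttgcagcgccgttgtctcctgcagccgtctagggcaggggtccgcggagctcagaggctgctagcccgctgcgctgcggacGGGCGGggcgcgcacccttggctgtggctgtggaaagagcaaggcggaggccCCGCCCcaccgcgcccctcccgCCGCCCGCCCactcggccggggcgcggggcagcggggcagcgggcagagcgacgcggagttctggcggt
Each window holds 4 GC boxes. The Col8a1 window also holds 3 E-boxes, of which 1 spans the start, and a RUNX motif at -230, and the Col8a2 window none of the other motifs. In base composition, Col8a2 had 71.7% G and C with 32 CpG and Col8a1 60.3% with 12 CpG, against medians of 52.7% and 7 over all windows of the table. The Col16a1 window, with 74.3% G and C and 24 CpG, held 2 GC boxes and 2 E-boxes.

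Among the FACIT genes, Col12a1 (ENSMUSG00000032332, chromosome 9, 79598991 to 79718831, minus strand), whose long chain binds the surface of type I fibrils, was at 71.8, 72.4 and 74.9 CPM in Control and at 990.8, 946.5 and 926.5 CPM in Hdac4-knockdown libraries. The libraries of each group were close to each other and the groups far apart. The means of 73.0 ± 1.61 and 954.6 ± 32.9 CPM (SD, n = 3) gave a 13.1-fold rise with a log2 fold change of 3.71 (SE 0.0439, edgeR adjusted p = 1.11e-22).

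Col16a1 (ENSMUSG00000040690, chromosome 4, 130047840 to 130099283, plus strand) encodes a minor FACIT-like collagen found with fibrils and microfibrils in skin and cartilage. It was at 34.5, 38.5 and 35.4 CPM in Control and at 179.5, 192.8 and 174.4 CPM in Hdac4-knockdown libraries. All Hdac4-knockdown libraries were above all Control libraries. The mean rose 5.04-fold, from 36.2 ± 2.09 to 182.2 ± 9.48 CPM (SD, n = 3), a log2 fold change of 2.33 (SE 0.0539, edgeR adjusted p = 2.15e-18). No exon bases of any of the 8 genes are shared with another annotated gene, and the antisense gene Gm12963 lies 65 bases from Col16a1.

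Col14a1 (ENSMUSG00000022371, chromosome 15, 55307750 to 55520803, plus strand), whose protein resembles type XII and binds decorin on fibrils, was close to the limit of detection. It was counted 2, 3 and 7 times in Control and 12, 11 and 16 times in Hdac4-knockdown libraries, or 0.0655, 0.1 and 0.246 CPM against 0.388, 0.341 and 0.532 CPM. The highest Control library came near the lowest Hdac4-knockdown library, without overlap. The summed counts of 12 and 39 gave a ratio of 3.10 after scaling (exact 95% interval 1.59 to 6.51, which covers counting error only), and the log2 fold change was 1.60 (SE 0.545, edgeR adjusted p = 0.0111). This call did not hold with DESeq2 (log2 fold change 1.61, adjusted p = 0.0813), nor in edgeR without Control library 1 (1.26, adjusted p = 0.0701) or without Hdac4-knockdown library 3 (1.41, adjusted p = 0.0511), and without Control library 3 the value was 2.27 (adjusted p = 0.00631). The log2 ratio of Col14a1 to Col12a1 per kilobase of exon was -8.98, -8.38 and -7.13 in Control and -10.20, -10.32 and -9.65 in Hdac4-knockdown libraries, a difference of -1.89 (SE 0.582, two-sided exact permutation p = 0.1) that rests on these low counts.

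Set in order of counts per kilobase of exon, Control libraries had Col6a3 (110.4 ± 3.37 CPM per kb) and Col6a1 (107.1 ± 1.79) at the top, and these overlapped. Col6a2 (24.5), Col8a1 (9.72), Col16a1 (5.36), Col12a1 (4.80), Col8a2 (0.263) and Col14a1 (0.0195) followed, with no overlap between neighbours. In Hdac4-knockdown libraries the order was Col6a1 (775.8 ± 31.8 CPM per kb), Col6a3 (360.4 ± 17.0), Col6a2 (288.9), Col12a1 (62.7), Col16a1 (27.0), Col8a2 (13.5), Col8a1 (4.62) and Col14a1 (0.0599), and no neighbours overlapped. Part of this order turns with the divisor. Per kilobase of coding sequence Col6a1 (152.5 CPM per kb) stood above Col6a3 (134.0) in Control, and Col12a1 (7.94) and Col16a1 (7.63) overlapped there. In Hdac4-knockdown libraries Col6a2 (775.5 CPM per coding kb) stood above Col6a3 (437.6). Col8a1 held the fourth place in Control and the seventh in Hdac4-knockdown libraries with either length, and Col12a1 the fourth place in Hdac4-knockdown libraries. Among 14521 tested genes with a known exon length, Col6a1 ranked 411 in Control and 27 in Hdac4-knockdown libraries by this level, Col6a3 394 and 82, Col6a2 2228 and 107, and Col12a1 7450 and 646.

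Of the remaining chains of these collagen classes, 10 of 11 listed were matched and 5 were tested. All 5 were called up, as were 38% of all genes tested. Col9a3, a chain of the cartilage FACIT type IX, had 29, 24 and 33 counts in Control and 127, 155 and 104 in Hdac4-knockdown libraries, a ratio of 4.28 (exact 95% interval 3.38 to 5.48). Col20a1, a further FACIT gene, had 16, 8 and 5 counts against 260, 288 and 237, a ratio of 25.8 (17.8 to 38.8). Both were above Control in all Hdac4-knockdown libraries. Col6a4, an additional type VI chain, had 2, 1 and 2 counts against 12, 16 and 17 (ratio 8.59, 3.42 to 27.7), and Col10a1, the network collagen of hypertrophic cartilage, 1, 1 and 1 against 10, 19 and 14 (13.7, 4.38 to 68.9). Col22a1 was at 0 in all Control libraries and had 16, 26 and 17 counts in Hdac4-knockdown libraries, at least 6.25-fold higher against a floor of 3 counts per library. Like Col14a1, the genes Col6a4, Col10a1 and Col22a1 passed the filter only through the Hdac4-knockdown libraries, and 1 Control library of Col20a1 reached its level, so the count of 5 and their median log2 fold change (3.62, or 3.01 with Col22a1 at its bound) were in large part set by the filter. Under a stricter filter of 10 counts in each library, Col9a3 remained as the 1 gene called up. Col6a5, Col6a6, Col9a1 and Col9a2 did not exceed 3 counts in any library, and Col19a1 had 0, 4 and 2 counts in Control and none in Hdac4-knockdown libraries.

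Among all 34 collagen genes tested, by log2 fold change Col8a2 ranked 5, Col12a1 9, Col6a2 11, Col6a1 14, Col16a1 17, Col6a3 21, Col14a1 22 and Col8a1 32. The calls in the other collagen lists stand beside 38% of all genes tested called up and 37.1% called down. The 11 fibrillar collagens, which form the fibrils that FACIT collagens decorate, were all tested, with 10 called up, 1 not called and a median of 2.41. Among them Col11a1 rose most, from 1.08 ± 0.143 to 155.1 ± 4.03 CPM (log2 fold change 7.16, SE 0.0811), and Col3a1 least, from 1787 ± 48.3 to 2098 ± 43.5 CPM (0.23, SE 0.0357). Of 8 tested basement membrane and multiplexin collagens, 3 were called up and 3 down, close to the shares among all genes. Their median was -0.18, and Col4a3 was tested only through its Hdac4-knockdown libraries. The named genes ran from Col18a1 (334.0 ± 13.4 to 60.9 ± 2.78 CPM, log2 fold change -2.45) to Col4a6 (4.61 ± 1.04 to 46.8 ± 2.74 CPM, 3.34). Of the transmembrane and remaining collagens, 2 were tested and 1, Col17a1, fell (6.45 ± 0.376 to 2.75 ± 0.240 CPM, log2 fold change -1.23), with a median of -0.65.

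**Figure D4:**
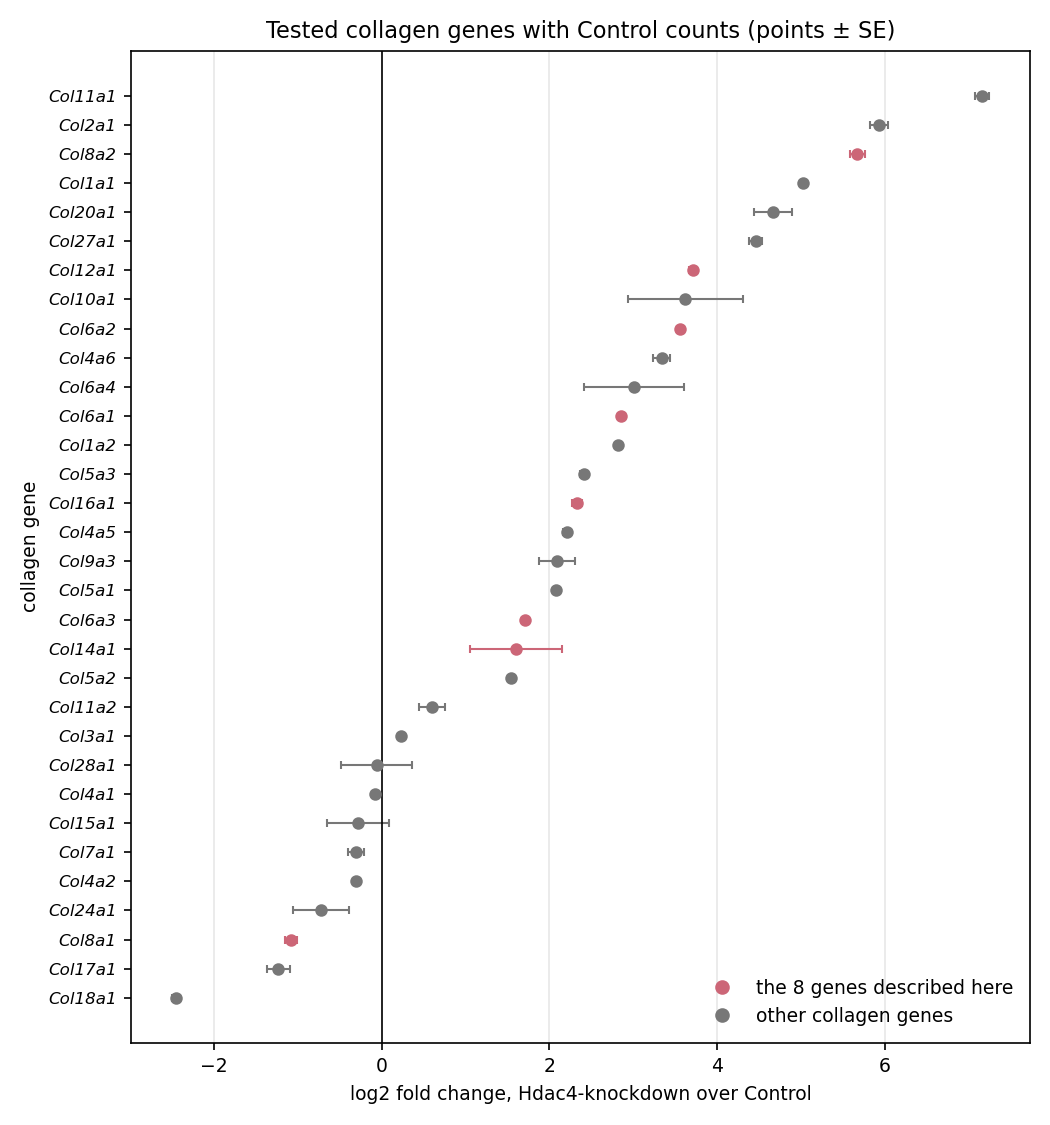
Log2 fold changes (x axis, Hdac4-knockdown over Control, points with SE) of 32 of the 34 collagen genes tested (y axis), with the 8 beaded, network and FACIT genes in red; 2 genes without Control counts are not drawn. Of the red points, 7 lie right of 0, from 1.60 to 5.67, and Col8a1 lies at -1.08.

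Genes that act on or with these collagens were taken from lists by role, whose counts stand beside 38% of all genes called up and 37.1% called down. Of 10 tested receptors, 7 were called up and 2 down (median 0.87), with Itga1 tested only through its Hdac4-knockdown libraries. Itga11, a collagen-binding integrin subunit, rose from 0.538 ± 0.0902 to 88.7 ± 2.94 CPM (log2 fold change 7.35, SE 0.1), while Antxr2, a type VI collagen receptor, fell from 163.1 ± 5.59 to 103.0 ± 5.71 CPM (-0.66, SE 0.0476). Of 12 tested partners at microfibrils and fibril surfaces, 10 were called up and 1 down (median 3.41). Fmod, Matn4, Tnxb and Comp passed the filter only through the Hdac4-knockdown libraries, so this count and this median were in part set by the filter. Under a stricter filter of 10 counts in each library, 6 were called up and 1 down. Fmod, a small proteoglycan that binds fibrils, had 2 counts in all Control libraries together and 4866 in Hdac4-knockdown libraries, a ratio of 2321 (exact 95% interval 642.3 to 19174). Tnc, the matrix glycoprotein tenascin-C and a partner of type XII collagen, fell from 363.5 ± 11.9 to 22.6 ± 0.752 CPM (-4.01, SE 0.0495). Tnc thus moved against Col12a1, with no overlap between groups for either gene.

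Of 14 tested genes for chain modification and folding, 10 were called up and 3 down, with a median of 0.42. P4ha3 and P4ha2, catalytic subunits of prolyl hydroxylases that stabilize the triple helix, marked the ends of the range. P4ha3 rose from 7.31 ± 0.626 to 44.2 ± 2.06 CPM (log2 fold change 2.60, SE 0.0778) and P4ha2 fell from 71.7 ± 2.21 to 39.4 ± 2.66 CPM (-0.86, SE 0.0562). Of 7 tested proteases, 3 were called up and 3 down (median 0.06), close to the shares among all genes. The range ran from Mmp2, a gelatinase, at 24.1 ± 0.508 and 598.0 ± 24.1 CPM (4.63, SE 0.0495), to Htra1, a secreted serine protease, at 271.2 ± 9.32 and 77.0 ± 1.36 CPM (-1.82, SE 0.0434). The genes given here with their levels were picked among called genes, so their passing the edgeR test was set by that choice. Their edgeR adjusted p ran from 1.55e-10 (Antxr2) to 5.1e-23 (Mmp2).

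For each collagen gene, the gene with the most similar profile over the 6 libraries was found by the root mean square difference of centred log2 CPM among 10823 genes (10824 for Col14a1) whose counts averaged 100 or more per library. Col6a1 was nearest to Cemip (difference 0.0223), Col6a2 to Ephb2 (0.0419), Col6a3 to Synpo (0.0302) and Col12a1 to Tgfbi (0.0374). Col8a2 was nearest to Scara5 (0.0975), Col8a1 to Purb (0.0273), Col16a1 to Man2b2 (0.0505) and Col14a1 to Mblac2 (0.212). The 8 genes had 8 different nearest genes, none of them a collagen, and the likeness is mostly that of the difference between groups.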

How the data were processed

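Poly-A RNA of 3 Control and 3 Hdac4-knockdown libraries was prepared with an unstranded Illumina kit. Per the labels, 3 independent RNA samples were made for each group. The authors deposited raw counts per Ensembl gene for each library, not normalized. The submitters' processing notes name STAR 2.7.3a, HTSeq 0.12.4, FastQC and the build mm10, without roles. The annotation release and the strand setting are not given in the sources used here. The 5 summary lines of each table (14.3 to 15% of counted reads) were left out of library sizes and tests. Of 53801 identifiers, 53706 were found in GENCODE M21 (GRCm38), which gave symbols, positions and exon lengths.

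Differences between groups were tested on the counts by edgeR 4.0.16, run in R 4.3.3 (TMM, filterByExpr, quasi-likelihood F test, Benjamini-Hochberg adjustment over 14531 genes). Genes were called at an adjusted p below 0.05 and a log2 fold change beyond 0.05. The biological coefficient of variation was 4.79%. Permutation tests of single values were exact and two-sided. Within groups, libraries differed by more than the sampling noise, so the error of each gene comes from the spread between libraries.

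The members and gene lists were chosen with earlier results of these data known. Named besides the 8 genes and Hdac4 are the tested chains of the same classes and, from each other list, the called genes with the largest and smallest log2 fold change among those whose counts averaged 100 or more per library, plus the gene of nearest profile for each of the 8. Start windows came from a RefSeq table (GRCm38.p6). The same fit was repeated with upper quartile scaling, with library size alone and with the size factors of DESeq2. Filters of 1 count in total and of 10 counts in each library were tried, as were DESeq2 1.42.0 and limma-voom (limma 3.58.1) in place of edgeR, a replicate block, log2 fold change limits of 0.5 and 1, and fits that left out 1 library each. Coding length as divisor and a scaling without the collagen genes were added after seeing the data. Figures were drawn with matplotlib 3.10.9.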

Additional observations from a re-analysis of the deposited data

Results flagged for a closer look

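One value was marked for a closer look because it lies outside the gene counts that the comparisons use and above the Control level. Reads that the counting assigned to no annotated feature, whether within introns or outside genes, made up 5.07% of counted reads in Hdac4-knockdown library 1. They made up 4.64% in library 2 and 4.66% in library 3, against 3.41, 3.17 and 3.25% in the Control libraries. The groups did not overlap, and the part of this difference in the collagen results was not tested. With 3 libraries per group, no test for single outlying libraries was made.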

How the results depend on the processing

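Of 119 log2 fold changes of the 8 genes under the alternatives, 116 kept their direction and their side of the threshold, 3 lost their call and none reversed. The 3 were all Col14a1, as given with its values above, and it could not be tested with at least 10 counts in every library. Over all alternatives the log2 fold change ran from 2.83 to 2.95 for Col6a1, 3.52 to 3.65 for Col6a2, 1.67 to 1.80 for Col6a3, -1.16 to -0.98 for Col8a1, 5.64 to 5.76 for Col8a2, 3.68 to 3.80 for Col12a1, 1.26 to 2.27 for Col14a1 and 2.29 to 2.42 for Col16a1. Without Hdac4-knockdown library 2, the library least like the others of its group, Col6a1 was at 2.83, Col6a2 at 3.53, Col6a3 at 1.69, Col8a1 at -0.98, Col8a2 at 5.67, Col12a1 at 3.72, Col14a1 at 1.74 and Col16a1 at 2.29. A log2 fold change beyond 0.5 left 3579 genes called up and 2879 down, and beyond 1 left 2397 and 1543, with the 8 genes at 7 up and 1 down at both limits. These limits were set on the main fit. Col8a1 came inside the limit of 1 with upper quartile scaling (-0.99) and without Hdac4-knockdown library 2 (-0.98). With at least 10 counts in every library the 8 genes were at 6 up and 1 down. Per kilobase of coding sequence the log2 ratio of Col6a3 to Col6a1 in Control reversed, from 0.04 to -0.19. The replicate numbers did not pair the groups (correlations of -0.0111, 0.027 and 0.0166 between deviations of same-numbered libraries), and with the replicate block 5523 genes were called up and 5441 down, the 8 genes again at 7 and 1. The coding length came from GENCODE in place of the planned RefSeq protein length, which was not run. Depth limits Col14a1, Col6a4 and Col10a1, whose Control counts are too few for a narrow interval.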

Other observations

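The genes next to the collagen genes on the chromosomes were examined after the values had been seen. Between Col6a2 and Col6a1 lies 1 annotated gene, the long noncoding RNA Gm35608, which rose from 0.0327 to 0.735 CPM (log2 fold change 4.30, SE 0.714). On the far side of Col6a2, Ftcd, an enzyme of histidine breakdown, rose from 0.0545 to 0.874 CPM (3.87, SE 0.681) at a distance of 5423 bases, while Pcbp3, beyond Col6a1, was at 0.606 and 0.596 CPM and was not called (-0.02, SE 0.387). All 3 of these genes were below 1 CPM in every group. The Control means of Gm35608 and Ftcd lie below the filter level of 0.328 CPM, so being tested already required higher Hdac4-knockdown levels.

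The neighbours of Col8a2 had log2 fold changes far from its 5.67. Adprhl2, at 1716 bases, was at 33.0 and 34.5 CPM (0.06, SE 0.0588, not called), and Trappc3 went from 62.7 to 56.0 CPM (-0.16, SE 0.0571). On both sides of Col8a1 the tested neighbours were called down, as were 37.1% of all genes tested. Dcbld2, at 653705 bases, went from 185.4 to 57.1 CPM (-1.70, SE 0.052), and Cmss1, at 17393 bases, from 25.5 to 21.6 CPM (-0.24, SE 0.0687). Beside Col12a1, Cox7a2 went from 55.6 to 46.2 CPM (-0.27, SE 0.0546), and beside Col14a1, Deptor, an inhibitor of mTOR, fell from 75.6 to 23.5 CPM (-1.69, SE 0.0691). On the sides of Col6a3, Cops8, at 152581 bases, was at 92.0 and 89.1 CPM and was not called (-0.05, SE 0.0434). Mlph, at 71113 bases, rose from 0.484 to 1.15 CPM (1.24, SE 0.326). Beside Col16a1, the antisense gene Gm12963 rose from 0.149 to 0.587 CPM (1.98, SE 0.571) and Pef1 from 41.4 to 50.1 CPM (0.28, SE 0.0581). The Control mean of Gm12963 also lies below the filter level of 0.328 CPM, so its being tested depended on its Hdac4-knockdown libraries. The remaining neighbours were Gm8116, a processed pseudogene 777152 bases from Col12a1 (-1.71, SE 0.191), and Mrpl13, 13290 bases from Col14a1 (-0.61, SE 0.0512). Both fell. These are values of single neighbours, and no relation between neighbours was tested.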
